A study of Mus musculus with 16 samples.

Results

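The expression of collagens, laminins and other matrix proteins was examined in tibialis anterior muscle, a fast muscle of the lower leg. The members were 44 collagen chains and 11 laminin chains, taken by their symbols, and 13 matrix proteins taken by name (Fn1, Sparc, Postn, Lox, Loxl1, Eln, Fbn1, Bgn, Nid1, Nid2, Hspg2, Tnc and Tnxb). They made up 68 of the 47643 genes in the expression table, and were chosen with earlier results of these data known, although the rule itself uses no measured value. A mean of at least 1 TPM over the 16 muscles was reached by 39 members, which were tested, and the other 29 are described by their levels. TPM gives a transcript's share of all transcripts in a sample, with length accounted for, so that levels can be compared between genes.

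All 16 mice carried UBR4 fl/fl alleles on the C57BL6/J strain, were labelled male and had received tamoxifen as young adults. The UBR4 mKO mice also carried ACTA1-Cre, a tamoxifen-induced recombinase under a skeletal muscle actin promoter, and their WT siblings did not. The promoter is active in myofibers, so that fibroblasts, endothelial cells and other cells of the muscle were not targeted. The 4 groups were both genotypes at 6 months and both at 24 months of age, with 4 muscles in each. UBR4 is a large ubiquitin ligase, and the study asked how its loss from muscle acts at both ages.

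Skeletal muscle holds a pair of matrices with different makeup. Interstitial connective tissue, made mainly by fibroblasts, is built on fibrillar collagens, of which type I and type III are the main ones and type V starts and limits the width of the fibrils. Each myofiber and capillary is also wrapped in a basement membrane, in which a laminin network and a type IV collagen network are joined by nidogens and perlecan. Laminins are trimers of an alpha, a beta and a gamma chain, and loss of the alpha chain of muscle laminin, encoded by Lama2, causes a congenital muscular dystrophy.

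Ubr4 itself was at 9.09 to 15.7 TPM in WT and 4.92 to 6.54 TPM in UBR4 mKO muscles at 6 months, and at 17.0 to 21.1 and 4.28 to 14.6 TPM at 24 months, without overlap at either age. Its log2 fold change was -1.12 at both ages (SE 0.26), which passed the test at 6 months (adjusted p = 0.00365) and not at 24 months (adjusted p = 0.0599). The libraries did not all match their labels: every 6-month-old library held both Xist (0.711 to 23.8 TPM) and RNA of Y-linked genes, whereas Xist was at most 0.0253 TPM at 24 months. This feature and age therefore cannot be told apart, and replicate 4 of 6-month-old UBR4 mKO stood furthest out, with the highest Xist and 0.181 TPM summed over the Y-linked genes. Myofiber genes summed to 76550 to 108900 of the 1000000 TPM of a sample. Over all 10628 genes tested, the median gene was 0.33 higher on the log2 scale in 6-month-old UBR4 mKO than in WT, and 0.26 higher in WT at 24 than at 6 months. Mitochondrial transcripts took 52.6 to 59.7% of the TPM in 6-month-old WT and 46.1 to 51.7% in the other groups. Differences are therefore also given relative to the median gene and after median-of-ratios scaling, which sets samples to equal level at their median gene.

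The members differed widely in level. Sparc, a calcium-binding glycoprotein that binds collagen, had the highest mean over all muscles (91.9 TPM), and Col12a1, a collagen that sits on the surface of fibrils, had the lowest mean among the tested members (1.26 TPM). Just under the filter stood Tnc, a matrix protein of the myotendinous junction, with 0.918 TPM, and the lowest of all was Lama1 with 0.00432 TPM. In 6-month-old WT muscles the 11 fibrillar collagens, of which 8 were tested, summed to 38.8 to 136 TPM. The 20 basement membrane genes, of which 11 were tested, summed to 95.2 to 152 TPM. The most abundant basement membrane genes there were Lamb2 (29.6 ± 6.81 TPM, SD, n = 4), Col4a1 (24.4 ± 5.36 TPM) and Col4a2 (19.9 ± 4.13 TPM). Type I collagen was the most abundant fibrillar collagen, with 28.9 ± 23.8 TPM of Col1a1 and 21.8 ± 13.8 TPM of Col1a2.

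In 6-month-old UBR4 mKO muscles, matrix genes were broadly higher than in WT, and the largest differences were in collagens other than type I. Of the 39 members tested, 28 were higher and 0 were lower (limma, adjusted p under 0.05), with Col3a1, Col5a2, Col4a1, Col15a1 and Col5a3 at the top. Among all genes tested in this comparison, 43.7% were called higher, 1.15% lower and 44.9% in either direction. The members' median log2 fold change was 0.69, against 0.33 for all genes, which left 0.37 relative to the median gene. The member count depended on scaling: with median-of-ratios scaling 9 members were higher and 1 was lower, where 6.66% of all genes were higher, 10.2% lower and 16.8% either.

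**Figure D1:**
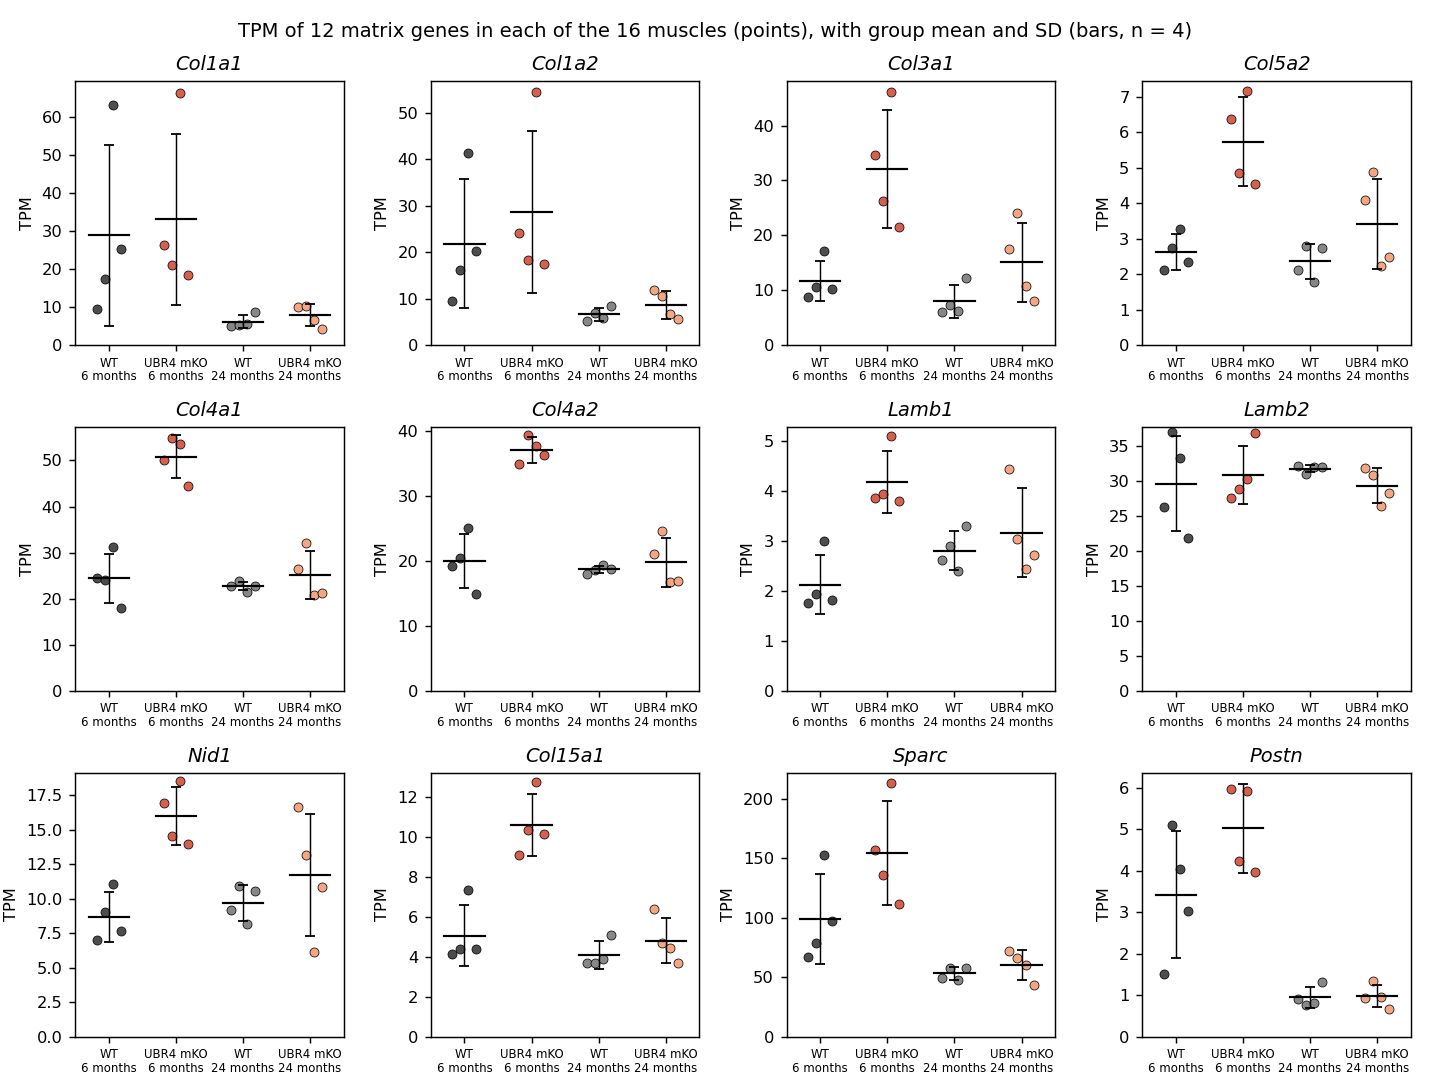
TPM (vertical axes, linear and starting at 0) of 12 matrix genes in each of the 16 muscles. Points are muscles and bars are group means with SD (n = 4). Col4a1 and Col4a2 of all 4 6-month-old UBR4 mKO muscles lie above those of every other muscle, Lamb2 overlaps among the groups, and no 24-month-old muscle exceeds 10.3 TPM of Col1a1, 11.8 TPM of Col1a2 or 1.34 TPM of Postn.

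Among fibrillar collagens at 6 months, 6 of the 8 tested members were higher in UBR4 mKO muscles, beside 43.7% of all genes, and the chains of type I collagen were the 2 that were not called. After median-of-ratios scaling 3 of the 8 were higher, beside 6.66% of all genes. Col3a1, which encodes the only chain of type III collagen, was at 8.71, 10.6, 17.1 and 10.2 TPM in the 4 WT muscles (replicates 1 to 4) and at 34.6, 26.3, 46.1 and 21.6 TPM in the UBR4 mKO muscles. Every UBR4 mKO muscle lay above every WT muscle. The fold change was 2.72 (log2 1.45, SE 0.32, adjusted p = 0.00295), which was the largest of any member, and it was 1.09 on the log2 scale after median-of-ratios scaling (adjusted p = 0.0354).

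The fibril-starting type V chains were higher too. Col5a2 went from 2.11, 2.72, 3.27 and 2.35 TPM in WT to 6.36, 4.86, 7.17 and 4.55 TPM in UBR4 mKO muscles (log2 1.10, SE 0.23, adjusted p = 0.00231), without overlap. Col5a3 had a log2 fold change of 1.06 and Col5a1 one of 0.84, again without overlap between the groups. Of these chains, Col5a2 and Col5a3 were still called after median-of-ratios scaling and Col5a1 was not. The 2 remaining fibrillar collagens called were Col24a1 (log2 1.01, adjusted p = 0.00985) and Col11a2 (log2 0.56, adjusted p = 0.0437), both minor chains, and neither was called after that scaling.

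Type I collagen, the trimer of Col1a1 and Col1a2 chains, did not pass the test at 6 months. Col1a1 was at 9.47, 17.5, 63.1 and 25.4 TPM in WT and at 26.2, 21.1, 66.3 and 18.5 TPM in UBR4 mKO muscles. The groups overlapped, and 1 muscle of each group, replicate 3 in both, was far above the other 3. The log2 fold change was 0.34 (SE 0.47, adjusted p = 0.547), which was 0.01 relative to the median gene. Col1a2 had the same order of muscles, with 9.45, 16.1, 41.5 and 20.3 TPM in WT and 24.2, 18.3, 54.4 and 17.5 TPM in UBR4 mKO muscles (log2 0.43, SE 0.39, adjusted p = 0.361). The ratio of Col1a1 to Col3a1 was 1.09 to 3.70 in WT and 0.756 to 1.44 in UBR4 mKO muscles, a log2 difference of -1.11 that did not pass correction over 32 such ratio tests, which were chosen after the values were seen (exact permutation p = 0.0571, adjusted p = 0.141).

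At 6 months the muscle with the most Col1a1 in each genotype, replicate 3, also had the highest sum of tendon genes, while the other replicates did not fall in the same order in either genotype. The 8 tenocyte markers, among them Tnmd, Fmod and Thbs4, summed to 94.3, 147, 204 and 130 TPM in 6-month-old WT and to 177, 135, 276 and 189 TPM in 6-month-old UBR4 mKO muscles. At 24 months the WT replicate with the highest Col1a1 (8.64 TPM), replicate 4, had the lowest tenocyte sum of its group (93.3 TPM). In 24-month-old UBR4 mKO, replicate 4 had both the lowest Col1a1 and the lowest tenocyte sum (69.8 TPM). The highest sum there (110 TPM, replicate 1) and the highest Col1a1 (replicate 2) were in different muscles. None of the 8 was at 0 in any group, and the part of tendon tissue in the collagen levels was not tested.

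The promoters of Col3a1, which was called at 6 months, and of Col1a2, which was not, are shown, although the difference between their effects was not tested. They are given as the 300 bases around the start sites that RefSeq gives on GRCm38.p6 (250 before and 50 after), in the direction of transcription. Capitals mark matches to TATAAA in Col3a1 and to CCAAT or its reverse complement ATTGG in Col1a2, with both strands searched. Col3a1 lies on chromosome 1 (chr1:45311538-45349706, plus strand), and its window is chr1:45311288-45311587. Col1a2 lies on chromosome 6 (chr6:4504814-4541544, plus strand), and its window is chr6:4505368-4505667, whose start site lies 804 bases downstream of the first base of the annotated gene. Col1a1 (chr11:94936224-94953042, plus strand) is named only.
Col3a1: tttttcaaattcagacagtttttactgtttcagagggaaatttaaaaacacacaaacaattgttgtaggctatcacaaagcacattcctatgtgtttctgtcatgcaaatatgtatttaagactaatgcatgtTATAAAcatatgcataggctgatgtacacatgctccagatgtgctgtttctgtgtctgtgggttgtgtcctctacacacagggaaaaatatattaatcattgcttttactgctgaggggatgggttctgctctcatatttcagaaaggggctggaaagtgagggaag
Col1a2: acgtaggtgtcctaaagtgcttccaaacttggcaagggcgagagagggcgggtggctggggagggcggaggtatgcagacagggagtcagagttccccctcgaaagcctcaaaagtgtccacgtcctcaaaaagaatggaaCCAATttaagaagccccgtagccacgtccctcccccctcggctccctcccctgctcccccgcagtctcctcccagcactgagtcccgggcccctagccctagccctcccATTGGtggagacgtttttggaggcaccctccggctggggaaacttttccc
In Col3a1 the TATAAA match begins 117 bases before the start site, and a match is held by 13.6% of the 32851 promoters in the table. In Col1a2 a CCAAT match begins 109 bases before the start site and a reverse match lies at the start site itself, and 37.4% of promoters hold a match. A match is a description of the letters and not a site.

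Basement membrane genes were higher in 9 of the 11 tested members at 6 months, beside 43.7% of all genes, and in all 9 the UBR4 mKO and WT muscles did not overlap, beside 39% of all genes. After median-of-ratios scaling 3 of the 11 were higher and 1 was lower, beside 6.66% and 10.2% of all genes. The median log2 fold change of the 11 was 0.75, or 0.42 relative to the median gene. Type IV collagen, the sheet-forming collagen of this layer, led. Col4a1, at 24.4, 24.0, 31.1 and 18.02 TPM in WT, was at 50.1, 54.9, 53.6 and 44.5 TPM in UBR4 mKO muscles (2.11-fold, log2 1.08, SE 0.15, adjusted p = 0.000131). Col4a2, whose product joins that of Col4a1 in the same trimer, was at 19.3, 20.5, 25.0 and 14.9 TPM in WT and at 34.8, 39.4, 37.6 and 36.2 TPM in UBR4 mKO muscles (1.88-fold, log2 0.91, SE 0.14, adjusted p = 0.000242). Both kept their calls after median-of-ratios scaling, with log2 fold changes of 0.72 and 0.56. The ratio of Col4a1 to Col4a2 stayed between 1.11 and 1.44 in all 16 muscles.

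The 2 genes lie head to head on chromosome 8, Col4a1 on the minus strand (chr8:11198423-11312826) and Col4a2 on the plus strand (chr8:11312805-11449287). Their promoter windows are shown because both levels moved together, each in its own direction of transcription. The windows are chr8:11312777-11313076 for Col4a1 (minus strand) and chr8:11312555-11312854 for Col4a2 (plus strand), and capitals mark CCAAT or its reverse complement ATTGG.
Col4a1: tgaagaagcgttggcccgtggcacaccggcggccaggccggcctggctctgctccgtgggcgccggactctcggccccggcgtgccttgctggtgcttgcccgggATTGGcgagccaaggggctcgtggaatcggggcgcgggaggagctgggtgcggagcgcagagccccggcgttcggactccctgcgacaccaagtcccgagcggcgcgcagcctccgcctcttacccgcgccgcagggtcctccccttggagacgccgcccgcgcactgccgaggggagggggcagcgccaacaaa
Col4a2: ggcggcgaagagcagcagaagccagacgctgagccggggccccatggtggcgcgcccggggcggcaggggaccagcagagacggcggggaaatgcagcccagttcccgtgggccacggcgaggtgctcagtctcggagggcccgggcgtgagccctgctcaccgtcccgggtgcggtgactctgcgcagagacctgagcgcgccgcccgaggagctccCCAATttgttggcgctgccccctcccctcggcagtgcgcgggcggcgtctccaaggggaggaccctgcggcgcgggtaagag
The start sites are 21 bases apart and the windows share 78 bases. The windows hold different matches. That of Col4a1 begins 145 bases before its start site, on its reverse strand, and that of Col4a2 begins 32 bases before its own. The genes share 22 exonic bases on opposite strands, and whether reads were counted by strand is not given in the sources used here.

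Of the 6 tested laminin chains, 4 were called higher at 6 months, beside 43.7% of all genes, and Lamb2 and Lama5 were not. After median-of-ratios scaling 1 was higher (Lamb1) and 1 lower (Lamb2), beside 6.66% and 10.2% of all genes. Lamb1, the beta chain of the laminin that surrounds most of the myofiber, was at 1.75, 1.94, 3.00 and 1.82 TPM in 6-month-old WT and at 3.86, 3.93, 5.10 and 3.80 TPM in UBR4 mKO muscles (log2 0.96, SE 0.19, adjusted p = 0.00152). Lamb2, the beta chain concentrated at the neuromuscular junction, was at 26.3, 36.9, 33.2 and 21.8 TPM in WT and at 27.5, 28.8, 30.2 and 36.8 TPM in UBR4 mKO muscles. The Lamb1 groups did not overlap and the Lamb2 groups overlapped. The log2 fold change of Lamb2 was 0.08 (SE 0.13, adjusted p = 0.617), and it turned to -0.27 after median-of-ratios scaling (adjusted p = 0.0452), whereas that of Lamb1 was 0.62 (adjusted p = 0.0269). Within the same muscles, Lamb1 was 0.0524 to 0.0901 of the Lamb2 level in WT and 0.103 to 0.169 in UBR4 mKO. This ratio does not depend on scaling, and its log2 difference of 0.88 did not pass correction over the 32 ratio tests (exact permutation p = 0.0286, the smallest that 4 against 4 muscles can give, adjusted p = 0.0914).

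Among the other laminin chains, Lama2, the alpha chain of muscle laminin, had a log2 fold change of 0.75 (adjusted p = 0.00951), Lamc1, the common gamma chain, one of 0.68 (adjusted p = 0.0110) and Lama4, an alpha chain of blood vessels, one of 0.61 (adjusted p = 0.00711). Lama5 was not called, with a log2 fold change of 0.43 (adjusted p = 0.0708). The nidogens, which link laminin to type IV collagen, had log2 fold changes of 0.89 (Nid1) and 0.78 (Nid2), and Hspg2, which encodes perlecan, one of 0.61. None of Lama2, Lama4, Lamc1, Nid1, Nid2 and Hspg2 was called after median-of-ratios scaling. Lama2 and Nid2 share 631 and 437 exonic bases with genes on the opposite strand, so that their reads may include those of another gene.

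Outside these groups, 13 of 20 tested members were higher at 6 months, beside 43.7% of all genes, and 3 of the 20 after median-of-ratios scaling. The multiplexin Col15a1, a collagen at the outer face of the basement membrane, was at 4.14, 4.40, 7.32 and 4.36 TPM in WT and at 9.05, 10.3, 12.7 and 10.1 TPM in UBR4 mKO muscles (2.11-fold, log2 1.08, SE 0.19, adjusted p = 0.000657), without overlap. Its relative Col18a1, the source of endostatin, had a log2 fold change of 0.66. All 3 tested chains of type VI collagen, the beaded filament that anchors the basement membrane to the interstitium, were higher: Col6a3 by 1.03, Col6a2 by 0.80 and Col6a1 by 0.78 on the log2 scale. The 3 still called after median-of-ratios scaling were Col15a1, Col6a3 and Col8a1, a short chain collagen of vessels (0.88 before and 0.54 after), and the other 10 lost their calls. Col7a1, the anchoring fibril collagen, had a log2 fold change of 0.95, and Col22a1, a collagen of the myotendinous junction, one of 0.67. Col20a1 (0.66) was called too, as were Bgn, the small proteoglycan biglycan, at 0.91, Fbn1, the main protein of microfibrils, at 0.85, Sparc at 0.67 and Loxl1, an elastin cross-linking enzyme, at 0.62.

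The 7 members of these classes that were not called had log2 fold changes of 0.24 to 0.69. Fn1, which encodes fibronectin, had a value of 0.69 with an adjusted p of 0.0869, and Postn, which encodes periostin, 0.64 with 0.0809. Tnxb (0.60), Lox (0.54), Eln (0.49), Col16a1 (0.48) and Col12a1 (0.24) were the others. Fbn1 shares 2442 exonic bases with a gene on the opposite strand.

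**Figure D2:**
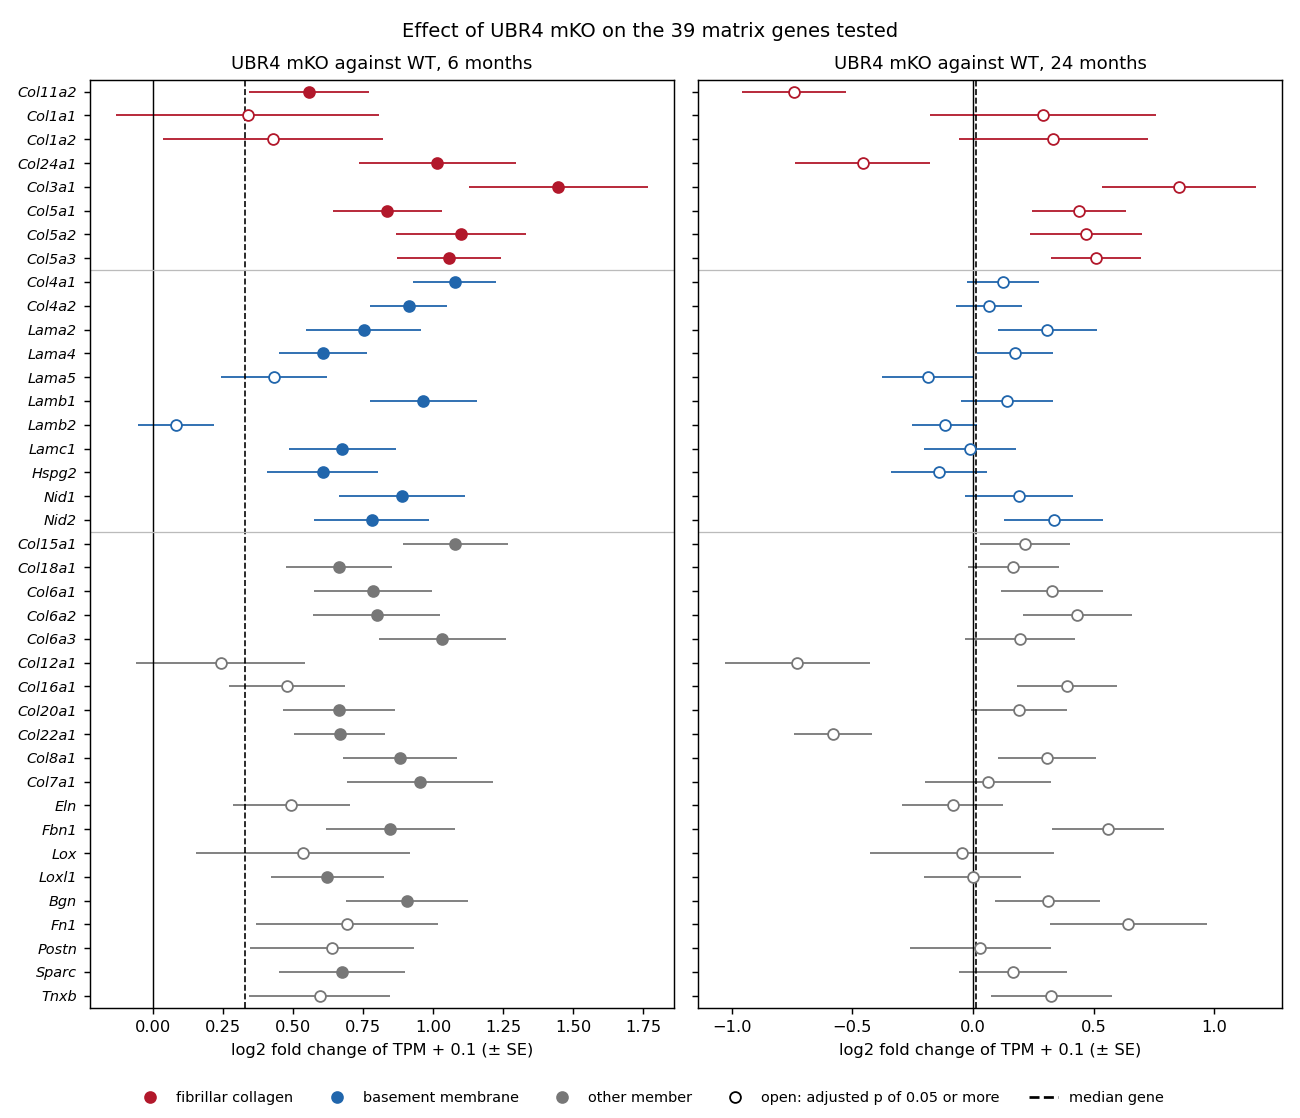
Log2 fold change of TPM + 0.1 with its SE (horizontal axes) for the 39 tested members in UBR4 mKO against WT muscles at 6 months (left) and 24 months (right), each from 4 muscles a group. Filled points passed an adjusted p of 0.05, open points did not, and the dashed line is the median gene. At 6 months 28 points are filled and 37 lie right of the median gene, and at 24 months none is filled.

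Groups did not overlap for 26 of the 39 members at 6 months, all higher in UBR4 mKO muscles, where 39% of all genes were higher without overlap, 0.932% lower and 39.9% in either direction. With median-of-ratios scaling 5 members were left without overlap, all higher, where 11.4% of all genes were, and with mitochondrial genes left out 10, where 16.1% of all genes were. In bulk muscle, more cells of a type and more RNA per cell cannot be told apart. All 5 tested leukocyte markers of 8 were higher in 6-month-old UBR4 mKO muscles (log2 1.59 to 2.77), and their sum ran from 25.6 to 40.9 TPM in WT, where Cd3e was at 0, and from 86.2 to 245 TPM in UBR4 mKO. Of the 8 endothelial markers 6 were higher, with sums of 107 to 140 TPM and 173 to 180 TPM, and of the 10 fibroblast markers 5 were higher, with sums of 340 to 418 TPM and 421 to 615 TPM, where 43.7% of all genes were higher. After median-of-ratios scaling 0 endothelial and 0 fibroblast markers were higher, and the 5 leukocyte markers were still called. No endothelial or fibroblast marker was at 0. The part of these cells in the collagen and laminin levels was not tested. Without replicate 4 of 6-month-old UBR4 mKO and replicate 3 of 24-month-old UBR4 mKO, 28 members were higher, where 40.5% of all genes were, an analysis added after seeing the data. The first of these 2 libraries stood out in its sex-linked RNA. The second did not, with Xist at 0 TPM and 34.6 TPM summed over the Y-linked genes. The call of Sparc was lost without any of WT replicates 1, 2 and 4 or UBR4 mKO replicates 1 and 3, and that of Hspg2 without WT replicate 1 or 4 or UBR4 mKO replicate 4.

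At 24 months no member passed the test between UBR4 mKO and WT muscles (limma, 0 of 39, with 7 at an unadjusted p under 0.05 and 1 by Dunn's test without adjustment), where 0.433% of all genes were called higher, 0.198% lower and 0.63% in either direction. The shares of all genes at an unadjusted p were not computed. After median-of-ratios scaling 0 members were called as well, where 0.414% of all genes were higher, 0.499% lower and 0.913% either. With array weights, which weight each sample by its spread, 3 members were called, Fbn1 higher (log2 0.84, adjusted p = 0.0297) and Col11a2 and Col22a1 lower (log2 -0.98 and -0.61, adjusted p = 0.0202 and 0.0299), where 1.61% of all genes were higher and 0.781% lower. The median log2 fold change of the members was 0.19, against 0.01 for all genes. Col3a1 was again the highest, at 6.09, 7.24, 6.17 and 12.3 TPM in WT and at 17.5, 24.1, 10.7 and 8.02 TPM in UBR4 mKO muscles. The groups overlapped, with the UBR4 mKO muscles spread on both sides of the highest WT muscle, and the log2 fold change was 0.85 (SE 0.32, adjusted p = 0.320). Col4a1, at 21.5 to 23.8 TPM in WT and 20.9 to 32.1 TPM in UBR4 mKO muscles, had a log2 fold change of 0.12 (SE 0.15, adjusted p = 0.891). For Col4a2 the value was 0.07 (SE 0.14, adjusted p = 0.966), and for Lamb1 it was 0.14 (SE 0.19, adjusted p = 0.915).

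In 4 members the 24-month-old groups did not overlap, where 4.29% of all genes were higher without overlap, 1.51% lower and 5.8% in either direction. Col5a3 (3.33 to 4.64 TPM in WT and 5.52 to 6.78 TPM in UBR4 mKO) and Col16a1 (0.693 to 0.891 TPM and 0.934 to 1.47 TPM) were higher in UBR4 mKO. Col11a2 (1.199 to 2.22 TPM and 0.792 to 1.05 TPM) and Col22a1 (2.38 to 3.42 TPM and 1.51 to 2.34 TPM) were lower. Their adjusted p-values lay between 0.149 and 0.578. The leukocyte marker sum was 42.5 to 97.9 TPM in WT and 105 to 341 TPM in UBR4 mKO muscles at 24 months, without overlap, and the sum of 6 adipocyte markers was 8.10 to 19.9 and 11.6 to 72.0 TPM, with overlap. None of the 5 tested leukocyte and 3 tested adipocyte markers was called by limma, and the part of these cells in the member levels was not tested.

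Between 6 and 24 months in WT muscles, type I collagen, periostin and Sparc fell while basement membrane genes did not pass the test. Of the 39 members 5 were lower, 2 were higher and 32 were not called, with 1.07% of all genes called lower, 24% higher and 25.1% in either direction. The members' median log2 fold change was 0.10, and that of all genes was 0.26. Col1a1 was at 9.47, 17.5, 63.1 and 25.4 TPM in the 6-month-old muscles and at 5.02, 5.31, 5.55 and 8.64 TPM in the 24-month-old ones. Every older muscle lay below every younger one (log2 fold change -1.91, or 0.267-fold, SE 0.47, adjusted p = 0.0106). The arithmetic mean of TPM, in which the muscle at 63.1 TPM weighs heavily, was 4.71-fold lower. Col1a2 went from 9.45, 16.1, 41.5 and 20.3 TPM to 5.16, 6.99, 5.86 and 8.39 TPM (log2 -1.53, SE 0.39, adjusted p = 0.0131), also without overlap.

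Postn, which encodes a matricellular protein that promotes collagen cross-linking, was at 1.51, 5.09, 4.05 and 3.04 TPM in 6-month-old WT and at 0.918, 0.754, 0.809 and 1.32 TPM in 24-month-old WT muscles (log2 -1.65, SE 0.29, adjusted p = 0.00145). Sparc was at 67.2, 78.9, 153 and 97.2 TPM at 6 months and at 49.4, 58.2, 47.6 and 57.7 TPM at 24 months (log2 -0.83, SE 0.22, adjusted p = 0.0169). In both genes the ages did not overlap. Col16a1, a fibril-associated collagen, fell by 0.68 on the log2 scale (adjusted p = 0.0278). The 5 members that fell were also the 5 that were lower without overlap, where 1.83% of all genes were lower in this way, 24.1% higher and 25.9% either. After median-of-ratios scaling 8 members were lower and 0 higher, the same 5 and Col12a1, Col8a1 and Fn1, where 5.33% of all genes were lower, 4.44% higher and 9.77% either.

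The 2 members that rose in WT were Col24a1 (log2 1.06, SE 0.28, adjusted p = 0.0146) and Col7a1 (log2 0.94, SE 0.26, adjusted p = 0.0184). Neither was called after median-of-ratios scaling. Col24a1 was at 0.601 to 1.61 TPM at 6 months and 1.62 to 3.496 TPM at 24 months, without overlap, and Col7a1, at 1.62 to 4.02 TPM and 3.73 to 6.14 TPM, overlapped. Neither Col7a1 nor Col16a1 was called when the Y-linked level was a covariate. Leaving out WT replicate 4 at 6 months ended the calls of Col24a1, Col7a1 and Sparc, leaving out WT replicate 3 at 6 months those of Col7a1, Sparc and Col16a1, and leaving out WT replicate 1 or 4 at 24 months those of Col7a1 and Col16a1, with that of Col16a1 also ended without replicate 3.

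No basement membrane gene and, of the type III and type V chains, none passed the test for age in WT. Col3a1 had a log2 fold change of -0.56 (SE 0.32, adjusted p = 0.174), Col5a2 one of -0.15 and Col5a1 one of -0.04. Col4a1 was at 24.4 ± 5.36 TPM at 6 months and 22.7 ± 0.925 TPM at 24 months (log2 -0.08, SE 0.15), and Col4a2 differed by -0.07. Over the 11 tested basement membrane genes the log2 fold changes ran from -0.08 (Col4a1) to 0.45 (Lama5), with a median of 0.17, and their groups overlapped in every case. With array weights 5 laminin chains, Lama5 (log2 0.57), Lamb1 (0.45), Lama2 (0.43), Lamc1 (0.27) and Lamb2 (0.20), were called higher with age in WT (adjusted p = 0.000307 to 0.0417), where 59% of all genes were higher and 2.49% lower, and Lamb1 also without WT replicate 3 at 6 months.

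Leukocyte markers moved with age in WT: their sum was 25.6 to 40.9 TPM at 6 months and 42.5 to 97.9 TPM at 24 months, without overlap, and 2 of the 5 tested were higher, where 24% of all genes were, and 1 after median-of-ratios scaling. Endothelial markers summed to 107 to 140 TPM and 115 to 140 TPM, with 0 of 8 called by limma and 5 lower after median-of-ratios scaling, where 5.33% of all genes were. Fibroblast markers summed to 340 to 418 TPM and 338.5 to 822 TPM, with overlap. Of these 10 markers 1 was higher and 0 were lower, beside 24% and 1.07% of all genes, and 0 were called after median-of-ratios scaling. The part of these cells in the age differences of the matrix genes was not tested.

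**Figure D3:**
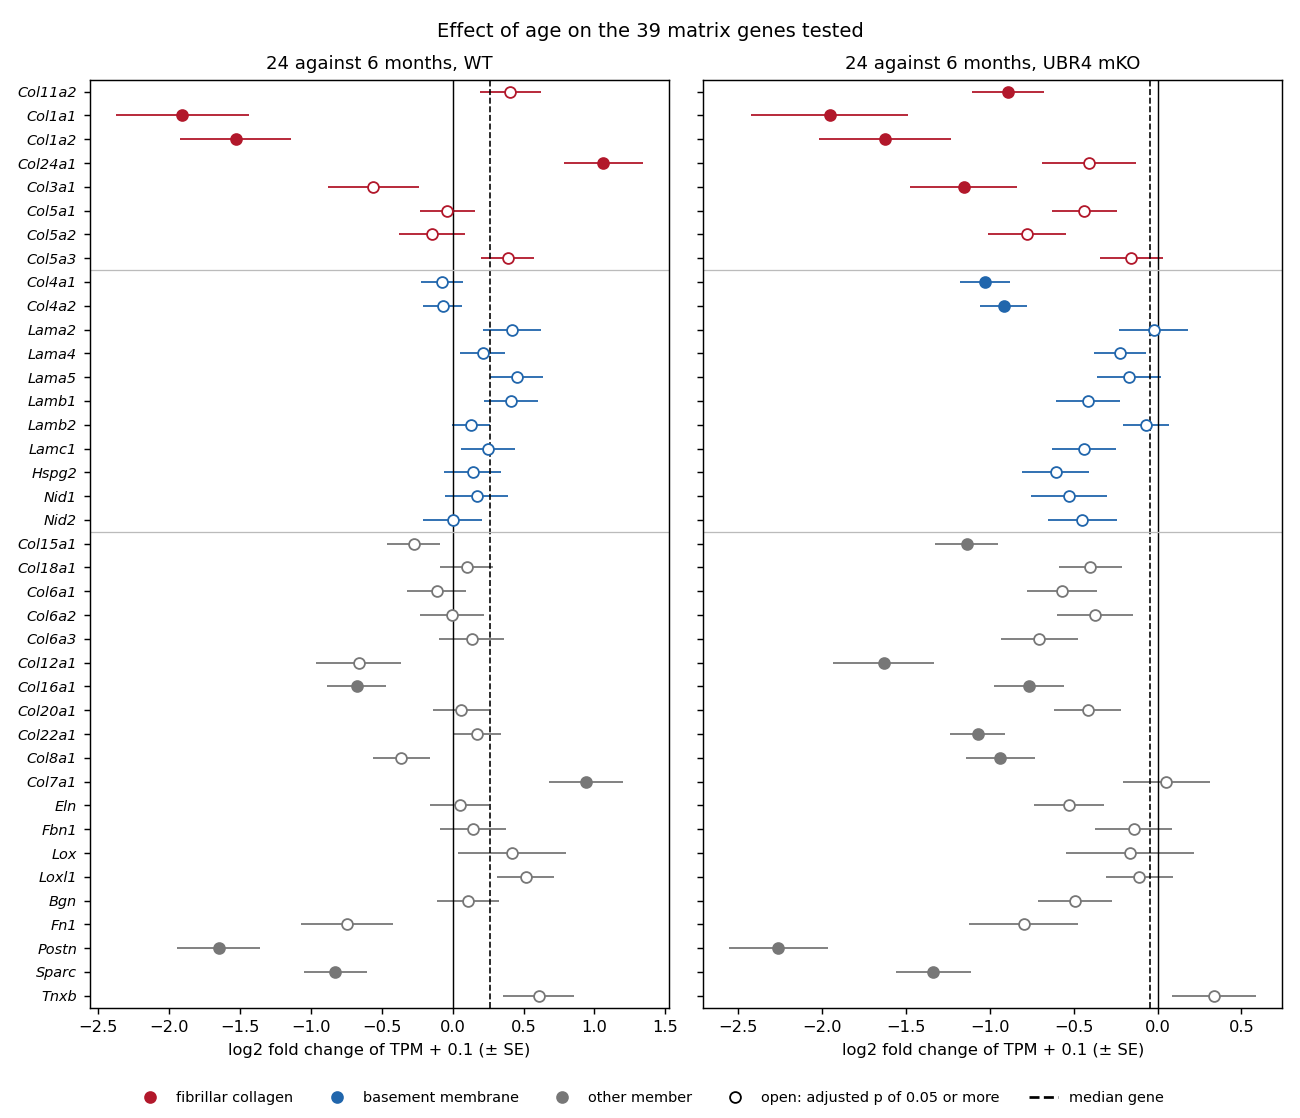
Log2 fold change of TPM + 0.1 with its SE (horizontal axes) for the 39 tested members at 24 against 6 months in WT (left) and UBR4 mKO (right) muscles, each from 4 muscles a group. Filled points passed an adjusted p of 0.05 and the dashed line is the median gene. Col1a1, Col1a2, Postn, Sparc and Col16a1 are filled and lower in both panels, and Col4a1 and Col4a2 are filled only in UBR4 mKO.

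In UBR4 mKO muscles 13 members fell between 6 and 24 months and 0 rose, where 3.85% of all genes were called lower, 2.45% higher and 6.29% in either direction. The 5 members that fell in WT fell here too, with Postn (log2 -2.26, SE 0.29, adjusted p = 0.000186) at the top. Postn was at 5.97, 4.23, 5.92 and 3.96 TPM at 6 months and at 0.942, 1.34, 0.958 and 0.671 TPM at 24 months. Col1a1 went from 26.2, 21.1, 66.3 and 18.5 TPM to 10.1, 10.3, 6.54 and 4.27 TPM (log2 -1.95, SE 0.47, adjusted p = 0.0182), Col1a2 fell by 1.62 on the log2 scale and Sparc by 1.34. None of these overlapped between the ages. The calls of Col1a1 and Col1a2 were lost without replicate 3 of 6-month-old UBR4 mKO, the muscle with the highest level of both, and without replicate 4 of 24-month-old UBR4 mKO, the muscle with the lowest.

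The other 8 members that fell in UBR4 mKO muscles included both tested type IV collagen genes. Col4a1 went from 50.1, 54.9, 53.6 and 44.5 TPM to 26.5, 32.1, 20.9 and 21.2 TPM (log2 -1.03, SE 0.15, adjusted p = 0.000526), and Col4a2 from 34.8, 39.4, 37.6 and 36.2 TPM to 21.0, 24.6, 16.7 and 16.8 TPM (log2 -0.92, SE 0.14, adjusted p = 0.000677). The older muscles lay within or near the range of the WT muscles, which was 18.02 to 31.1 TPM for Col4a1 and 14.9 to 25.0 TPM for Col4a2 over both ages. Col12a1 fell by 1.63, Col15a1 by 1.14, Col22a1 by 1.07, Col8a1 by 0.94 and Col11a2 by 0.89 on the log2 scale. Col3a1 fell by 1.15 with an adjusted p of 0.0395, and its ages overlapped (21.6 to 46.1 TPM and 8.02 to 24.1 TPM). Its call was lost in 12 of the alternative analyses. Hspg2, the remaining basement membrane gene without overlap, had a log2 fold change of -0.61 that did not pass the test (adjusted p = 0.0837), and was called after median-of-ratios scaling.

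Without overlap between the ages, 16 members were lower in UBR4 mKO, where 8.49% of all genes were lower in this way, 4.43% higher and 12.9% either. After median-of-ratios scaling 14 members were called lower and 0 higher, the 13 above and Hspg2, where 5.3% of all genes were lower, 5.97% higher and 11.3% either. Of tendon genes, 5 of the 7 tested tenocyte markers of 8 fell in UBR4 mKO muscles, where 3.85% of all genes were called lower, among them Tnmd by 2.01 on the log2 scale, and the sum went from 135 to 276 TPM at 6 months to 69.8 to 110 TPM at 24 months. Scx, another of these markers, was not called, and went the other way in UBR4 mKO muscles. It was at 3.78 to 5.38 TPM at 6 months and at 5.43 to 6.96 TPM at 24 months, without overlap. In WT muscles none of the 7 was called, with 1 (Tnmd) lower after median-of-ratios scaling, and the sums were 94.3 to 204 TPM and 93.3 to 169 TPM. Endothelial markers fell in 4 of 8 cases in UBR4 mKO muscles, with sums of 173 to 180 TPM and 109 to 138 TPM. Of the 10 fibroblast markers 1 fell and 0 rose, with overlapping sums of 421 to 615 TPM and 549 to 1008 TPM. No marker of these lists was at 0, and their part in the matrix gene levels was not tested. Without replicate 4 of 6-month-old and replicate 3 of 24-month-old UBR4 mKO, 11 members were lower in UBR4 mKO, where 3.07% of all genes were. In WT 6 were then lower and 3 higher, where 1.84% of all genes were lower and 38.2% higher.

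For 5 members UBR4 mKO acted differently at 6 and 24 months, with a smaller or turned effect at 24 months in each, where 4.58% of all genes had a lower and 0.122% a higher effect (limma interaction, 4.7% in all). The difference of the 2 log2 fold changes was -1.47 for Col24a1 (SE 0.39, adjusted p = 0.0425), -1.30 for Col11a2 (SE 0.30, adjusted p = 0.0250), -1.25 for Col22a1 (SE 0.23, adjusted p = 0.00828), -0.95 for Col4a1 (SE 0.21, adjusted p = 0.0193) and -0.85 for Col4a2 (SE 0.19, adjusted p = 0.0238). The median gene differed by -0.31. After median-of-ratios scaling Col22a1 alone was called among the members (log2 -0.92, adjusted p = 0.0395), where 0.969% of all genes had a lower effect, 1.02% a higher and 1.99% either. Col22a1 was at 2.33, 2.90, 3.22 and 2.09 TPM in WT and at 4.28, 4.18, 4.24 and 4.03 TPM in UBR4 mKO muscles at 6 months. At 24 months it was at 3.42, 3.00, 3.07 and 2.38 TPM in WT and at 2.34, 2.33, 1.70 and 1.51 TPM in UBR4 mKO muscles. The UBR4 mKO muscles were all above WT at 6 months and all below WT at 24 months. Among the 5, Col22a1 and Col4a1 kept their calls when any 1 muscle was left out, Col4a2 lost its call without replicate 2 or 3 of 6-month-old UBR4 mKO, Col11a2 without any of 4 muscles and Col24a1 without any of 12. The interaction of Col1a1 was -0.05 (SE 0.66, adjusted p = 0.962) and that of Lamb1 -0.83 (SE 0.27, adjusted p = 0.0762).

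Fibrillar collagens and basement membrane genes were compared directly by a difference within each muscle, the mean log2(TPM + 0.1) of the 8 tested fibrillar collagens minus that of the 11 tested basement membrane genes. This difference barely depends on how samples are scaled, and it is given as a description without a test. At 6 months it was -0.67 ± 0.20 in WT and -0.53 ± 0.27 in UBR4 mKO muscles, and at 24 months -1.15 ± 0.16 in WT and -1.02 ± 0.26 in UBR4 mKO muscles (mean ± SD, n = 4). UBR4 mKO minus WT was thus 0.14 at 6 months and 0.13 at 24 months, each under the SD of the UBR4 mKO group and with overlapping groups. These values ran from 0.02 (without UBR4 mKO replicate 3) to 0.24 (without UBR4 mKO replicate 4) at 6 months and from 0.06 (without WT replicate 2) to 0.25 (without UBR4 mKO replicate 4) at 24 months when 1 muscle was left out. With age it changed by -0.48 in WT, where the groups did not overlap (-0.85 to -0.42 and -1.37 to -1.02), and by -0.48 in UBR4 mKO, where they did. With the filter at 5 TPM, which leaves fewer genes, the difference was -1.47 with age in WT, -1.04 with age in UBR4 mKO and 0.07 and 0.50 for UBR4 mKO minus WT at 6 and 24 months.

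For the 5 tested minor fibrillar collagens (types V, XI and XXIV) minus the basement membrane genes, the difference changed with age by 0.15 in WT and by -0.09 in UBR4 mKO, with overlap in both. Type I chains made up 48.8 to 77.0% of the summed fibrillar TPM in WT at 6 months and 32.8 to 39.7% at 24 months, and 45.3 to 62.4% and 31.1 to 38.3% in UBR4 mKO. The ratio of Col1a1 to Col4a1 fell in WT from 0.388 to 2.03 at 6 months to 0.220 to 0.379 at 24 months, without overlap (exact permutation p = 0.0286, adjusted p = 0.0914 over the 32 ratio tests, of which none passed correction).

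**Figure D4:**
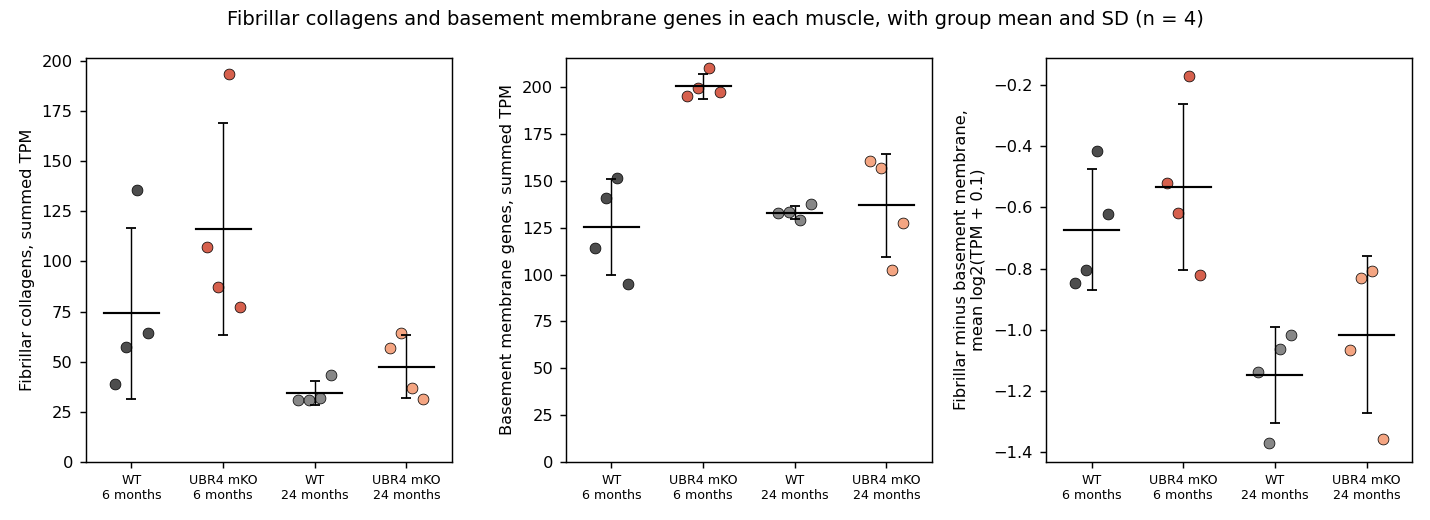
Summed TPM of all 11 fibrillar collagens (left) and of all 20 basement membrane genes (middle), in each of the 16 muscles with the group mean and SD (n = 4). The right panel gives the fibrillar minus basement membrane difference in mean log2(TPM + 0.1) over the 8 and 11 tested genes, drawn the same way. Basement membrane sums of the 6-month-old UBR4 mKO muscles (195 to 210 TPM) lie above all others, and the difference is lower in every 24-month-old WT muscle than in any 6-month-old WT muscle.

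Summed over all genes of each set, tested or not, the basement membrane set stood in WT and UBR4 mKO muscles at 95.2 to 152 and 195 to 210 TPM at 6 months and at 129 to 138 and 103 to 161 TPM at 24 months. The fibrillar set stood at 38.8 to 136 and 77.4 to 194 TPM at 6 months and at 31.0 to 43.2 and 31.4 to 64.1 TPM at 24 months. The 6-month-old UBR4 mKO muscles spread less in their basement membrane sum than in their fibrillar sum.

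The genes that make and handle these proteins were given by lists, and the counts at 6 months are read against the 43.7% of all genes called higher there (6.66% after median-of-ratios scaling). Of 17 tested genes of collagen modification and folding, 3 were higher in 6-month-old UBR4 mKO muscles, Plod2 (log2 0.73), Plod1 (0.42) and Ppib (0.41), the first 2 being lysyl hydroxylases and the third a prolyl isomerase. After median-of-ratios scaling 0 were higher and 4 were lower, where 10.2% of all genes were lower. Ppib was the only gene of that list called at 24 months (log2 0.39, adjusted p = 0.0491), and it was not called after median-of-ratios scaling (adjusted p = 0.183). With age in UBR4 mKO muscles, where 3.85% of all genes were lower and 2.45% higher, 3 fell: P3h2 by 0.99, the collagen chaperone Serpinh1 by 0.70 and Plod1 by 0.53. In the same comparison P4hb, the beta subunit of prolyl 4-hydroxylase, rose (log2 0.33, adjusted p = 0.0457). With median-of-ratios scaling 2 genes of the list were higher and 3 lower, beside 5.97% and 5.3% of all genes. Of 7 tested genes of secretion and propeptide processing, Bmp1, a procollagen C-proteinase, was called at 6 months (log2 0.81, adjusted p = 0.00129). Of 10 tested fibril assembly and cross-linking genes 5 were higher at 6 months, led by Lum (0.83) and Loxl2 (0.78), and 0 were higher after median-of-ratios scaling. With age in UBR4 mKO 2 fell, Fmod by 1.19 and Loxl2 by 0.90.

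Receptors for collagen and laminin were higher at 6 months in 7 of 13 tested genes, beside 43.7% of all genes. The collagen receptor Ddr1 (log2 0.90, adjusted p = 0.00103) and the alpha chain of the muscle laminin receptor, Itga7 (log2 0.84, adjusted p = 7.402e-05), led, and Mrc2, Ddr2, Itga6, Itgb1 and Bcam followed. With median-of-ratios scaling 3 of the 13 were higher, beside 6.66% of all genes. The effect on Ddr1 and Itgb1 was smaller at 24 months (interaction -0.98 and -0.59, adjusted p = 0.0289 and 0.0379), where 4.58% of all genes had a lower effect. Neither was called after median-of-ratios scaling (adjusted p = 0.0688 and 0.152). Of 14 tested genes of TGF-beta signalling, 4 were higher at 6 months, among them Tgfb1 (log2 0.79), Ltbp3 (0.70) and Tgfbr2 (0.41), beside 43.7% of all genes. With age in UBR4 mKO 1, Ctgf, fell (by 1.29). After median-of-ratios scaling 1 of these 14 was higher at 6 months and 3 were lower, beside 6.66% and 10.2% of all genes.

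The 29 members under the filter had a mean over all muscles under 1 TPM and were not tested. Col28a1, at 0.204 to 0.326 TPM in 6-month-old WT, was at 0.540 to 0.997 TPM in 6-month-old UBR4 mKO muscles and at 0.0993 to 0.417 TPM over both 24-month-old groups. The type IV chains Col4a3, Col4a4 and Col4a5 were likewise without overlap at 6 months, at 0.228 to 0.386 and 0.578 to 0.801 TPM for Col4a3, at 0.233 to 0.279 and 0.314 to 0.557 TPM for Col4a4 and at 0.219 to 0.454 and 0.692 to 0.851 TPM for Col4a5, and Col4a6 overlapped. Col4a3 shares 563 exonic bases with a gene on the opposite strand. The fibrillar chain Col11a1 was at 0.318 to 1.17 TPM in 6-month-old WT and 0.107 to 0.235 TPM in 24-month-old WT muscles. Tnc was in WT and UBR4 mKO muscles at 0.518 to 1.86 and 0.951 to 1.48 TPM at 6 months, and at 0.559 to 0.780 and 0.501 to 1.06 TPM at 24 months. The epithelial and embryonic laminin chains Lama1, Lama3, Lamb3 and Lamc3 were at 0.969 TPM or less in every muscle. These genes were picked from the list after their values were seen.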

How the data were processed

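RNA of 16 tibialis anterior muscles was sequenced as 100 bp paired reads. The authors mapped the reads to the mouse genome (mm10) with CLC Genomics Workbench and deposited TPM values per gene. Each sample sums to 1000000, and depth, strand use and the treatment of reads with several matches are not given in the sources used here. The labels and the methods name different kits and sequencers. The members and gene lists were chosen with earlier results of these data known.

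TPM values were tested as log2(TPM + 0.1) with limma (version 3.58.1, R 4.3.3; trend on the mean), on the 10628 genes with a mean of at least 1 TPM. All 16 samples entered, in 4 groups of 4, with no covariate. P-values were adjusted by the Benjamini-Hochberg method over all genes tested, with a threshold of 0.05. Fold changes on this scale understate those of low genes. Ratios were compared by exact permutation (two-sided, all 70 ways to split 8 muscles into 4 and 4). The labels call the samples of a group biological replicates. Their log2 values correlated at 0.965 to 0.993, and no pair was identical. Named were the main matrix genes, whatever their values, and up to 8 called members a direction in each comparison. Other called members and members under the filter were named after their values were seen. Some genes of the lists are not reported here. Code was tested on simulated data. Positions are those of the GRCm38 annotation, and promoter sequences are from RefSeq (GRCm38.p6), which matched 48 of the 68 members. Figures were drawn with matplotlib 3.10.9. Replicate numbers are shared between groups, and the deviations of same-numbered samples correlated at -0.155 to 0.181 over 16 pairs, of which 4 were over 0.1, so that the numbers were not taken to pair the samples.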

Additional observations from a re-analysis of the deposited data

Results flagged for a closer look

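In 9 of 116 groups of 4 values, 1 muscle lay far from the other 3 by Dixon's test, where 5.8 would be found by chance. Replicate 3 of 6-month-old UBR4 mKO was high in Col1a1 (66.3 TPM, others 18.5 to 26.2), Col6a3 (7.42 TPM, others 5.23 to 5.49) and Lamb1 (5.10 TPM, others 3.80 to 3.93). Replicate 3 of 6-month-old WT was high in Col15a1 (7.32 TPM, others 4.14 to 4.40) and Lamb1 (3.00 TPM, others 1.75 to 1.94). Replicate 4 of 24-month-old WT was high in Col1a1 (8.64 TPM, others 5.02 to 5.55) and Col15a1 (5.09 TPM, others 3.66 to 3.90). Replicate 2 of 24-month-old WT was low in Lamb2 (30.9 TPM, others 31.9 to 32.1) and high in Lox (7.66 TPM, others 1.65 to 2.42).

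UBR4 mKO acted differently at 6 and 24 months by the interaction test of limma for Col24a1 (-1.47), Col11a2 (-1.30), Col22a1 (-1.25), Col4a1 (-0.95) and Col4a2 (-0.85), each on the log2 scale.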

How the results depend on the processing

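Counts of called members (28, 0, 7, 13 and 5 for UBR4 mKO at 6 months, at 24 months, age in WT, age in UBR4 mKO and interaction) moved with the scaling and the filter. At 6 months 11 were called with a filter at 5 TPM, 10 with median-of-ratios scaling, 8 with mitochondrial genes left out and 13 by Dunn's test. The 5 TPM filter leaves fewer members to test, so that its counts cannot be set against the others. The share of all genes called was not computed for that filter, for Dunn's test, for unadjusted p-values or with mitochondrial genes left out. The members without overlap fell from 26 to 5 and 10 with those scalings, which was computed after seeing the data. For age in WT the count was 3 with the filter at 5 TPM, 15 with array weights and 0 by Dunn's test, and for age in UBR4 mKO 7 with that filter and 0 by Dunn's test (6 and 13 at an unadjusted p under 0.05). With array weights 3 members were called at 24 months. For the interaction the count was 3 without a filter, 2 with the filter at 5 TPM, 1 with either scaling and 11 with array weights. Lamb2 reversed at 6 months with median-of-ratios scaling (-0.27). With the filter at 5 TPM, which leaves fewer genes, the fibrillar minus basement membrane difference was 0.50 at 24 months, -1.47 with age in WT and -1.04 with age in UBR4 mKO.

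Leaving out 1 sample gave 23 (without WT replicate 4 at 6 months) to 32 members at 6 months, 0 to 0 at 24 months, 4 (without WT replicate 4 at 6 months) to 10 (without UBR4 mKO replicate 3 at 24 months) for age in WT, 8 (without UBR4 mKO replicate 3 at 6 months or replicate 4 at 24 months) to 16 for age in UBR4 mKO and 2 (without UBR4 mKO replicate 3 at 6 months) to 9 (without WT replicate 2 at 6 months) for the interaction, which was 3 without WT replicate 1 or 4 at 6 months, UBR4 mKO replicate 2 at 6 months or WT replicate 1 at 24 months. The fibrillar minus basement membrane difference ran from 0.02 to 0.24 (lowest without UBR4 mKO replicate 3) and 0.06 to 0.25 for UBR4 mKO at 6 and 24 months, and from -0.53 to -0.39 and -0.58 to -0.36 for age in WT and UBR4 mKO. With the replicate block the counts were 29, 0, 7, 11 and 5, although the numbers share no more than a label. Of 44 called results of single members, 4 kept their call under every alternative run on them: Col5a3, Col6a3 and Lamb1 at 6 months and the interaction of Col22a1. These 4 were not run with the 5 TPM filter, nor the interaction with Dunn's test. Of the others, Col3a1, Col5a2, Col15a1, Col4a1 and Col4a2 at 6 months lost their call in Dunn's test alone. The same held, among others, for Col1a1, Col1a2 and Postn with age in WT. It also held for Postn, Sparc, Col4a1 and Col4a2 with age in UBR4 mKO. Where no cause is given, the cause was not tested. Depth is unknown and limits the low members.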
